A study of Mus musculus with 16 samples.

Results

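The quadriceps, a thigh muscle made mostly of fast-twitch fibres in mice, was profiled by total RNA-seq in 8 libraries out of 16 in the series, chosen by their tissue and vector labels. In 4 of them the mice had received an adeno-associated virus labelled AAV-DJ8-TGB-Yap1S5A and in 4 one labelled AAV-DJ8-TGB-EGFP, here called the Yap1S5A and GFP vectors. All were from male C57BL6/J mice aged 12 to 14 weeks, taken at day 7 after infection, and the study's design describes the Yap1 expression as hepatic, so the muscle was read for what happens at a distance. The labels do not spell out TGB, the element named between the serotype and the transgene, and they do not say which cells it is active in. A treatment text attached to them speaks of liver resection or sham operation, which conflicts with their titles, genotype and design, and grouping here is by title.

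Yap1 is a transcriptional coactivator that the Hippo kinases hold in the cytoplasm, and Yap1S5A lacks the serines they act on. Skeletal muscle fibres differ in the myosin they carry, with Myh4 in the fastest, Myh1 and Myh2 in intermediate and Myh7 in slow fibres. In a catabolic state, muscle is known to change its fuel genes, to raise ubiquitin ligases such as Fbxo32 and Trim63, and to release amino acids.

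The deposited counts cover 13701 genes, of which 12121 passed a filter on low counts and were tested with edgeR's quasi-likelihood test, and a gene is called where its Benjamini-Hochberg adjusted p is under 0.05. In Yap1S5A quadriceps 510 genes were called higher (4.21% of those tested) and 584 lower (4.82%), 9.03% in all. At least 2-fold changes were 145 higher (1.2%) and 82 lower (0.677%), and 2855 genes had an unadjusted p under 0.05. All 4 Yap1S5A libraries lay above all 4 GFP libraries in 7.33% of genes tested and below them in 8.21%, together 15.5%. The median log2 fold change was 0.005 over all genes tested and the median size among the called genes was 0.59. Among the genes that fell were the calcium store protein gene Casq1, the fast myosin gene Myh4 and the transferrin receptor gene Tfrc. The 12 largest increases among called genes with a mean of at least 5 CPM (counts scaled to library size) and no overlap between the vectors included 5 genes of the macrophage list. Without GFP replicate 4 the counts were 277 higher and 325 lower, without Yap1S5A replicate 3 they were 323 and 382, and without Yap1S5A replicate 1 they were 347 and 355. A fit over all 16 libraries, in which liver and quadriceps share 1 estimate of the spread, ended the calls of 73 of the 172 called genes that were followed by name. Among them were Ampd1 (0.0701), Eno3 (0.376), Hk2 (0.0752), Jph1 (0.142), Ldha (0.054), Mef2c (0.0616), Mt2 (0.25), Pgam2 (0.23), Pkm (0.148), Sepp1 (0.0648), Srl (0.341), Tfeb (0.164) and Zbtb16 (0.1), each with its adjusted p in that fit.

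**Figure D1:**
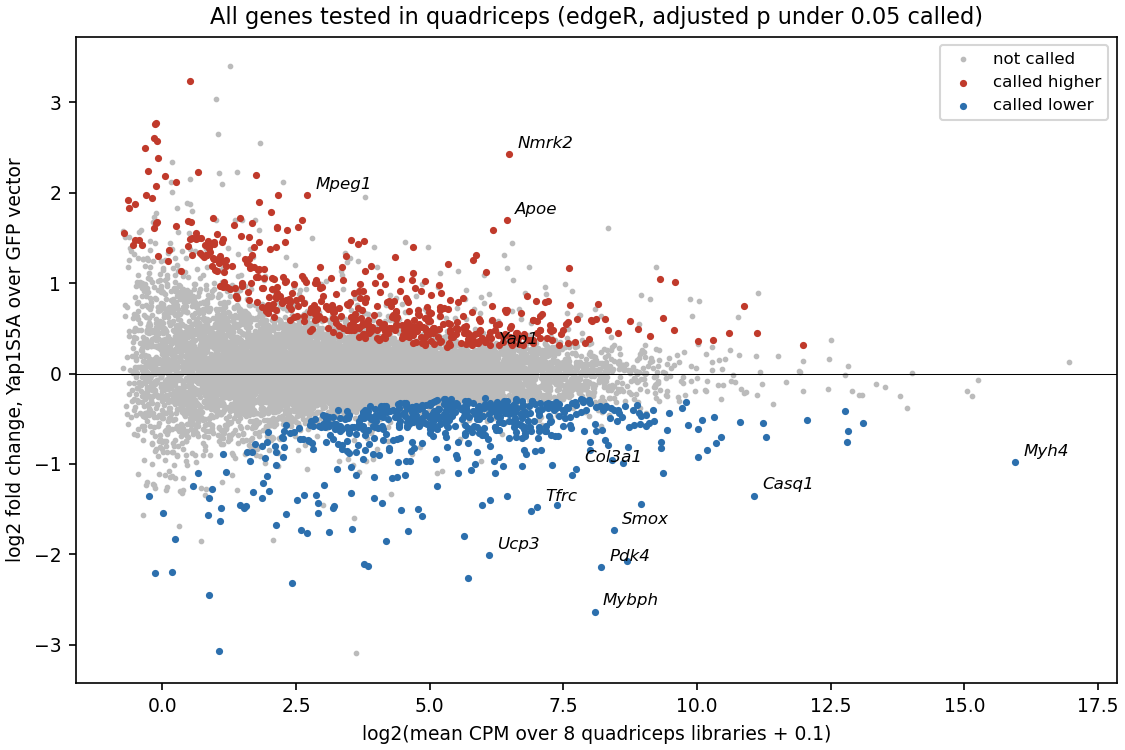
Log2 fold change of each of the 12121 genes tested in quadriceps (y axis, Yap1S5A over GFP vector) against its mean level (x axis, log2 of mean CPM plus 0.1, where CPM is counts scaled to library size). Red points are the 510 genes called higher, blue points the 584 called lower and grey points those not called, and Myh4 is the called gene farthest to the right.

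The libraries held 15696665 to 19215472 counts under the Yap1S5A vector and 15711242 to 16897004 under the GFP vector. Levels are read counts scaled to library size (CPM) with trimmed mean of M-values factors, and a log2 fold change is given with its standard error. The ribosomal RNA precursor Rn45s took 6.13% to 16.8% of counts against 8.3% to 14.5% (exact two-sided permutation p = 0.543). Genes with a count numbered 13125 to 13386 in the Yap1S5A libraries and 13035 to 13111 in the GFP libraries (exact permutation p = 0.0286, the smallest that 4 against 4 allows). Muscle identity was clear in all 8 libraries, with the creatine kinase gene Ckm at 29096 to 45929.9 CPM and the skeletal actin gene Acta1 at 27277 to 39435 CPM. The gene Yap1 stood at 70.1, 76, 87.2 and 72.2 CPM under the Yap1S5A vector and at 69.1, 65.7, 58 and 62 CPM under the GFP vector. Its log2 fold change of 0.26 ± 0.095 did not pass the threshold (edgeR adjusted p = 0.106), although the groups did not overlap. Whether transgene reads would be counted under Yap1 is not given in the sources used here. Exons of Ckm, Atp2a1, Myh7, Bnip3, Cish, Eci2, Gbp7, Htra4, Ifi35, Mt2 and Sirt3 share 11.3% to 72.1% of their length with another annotated gene, and their values are uncertain to that extent.

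A few libraries stood apart within their own group, and several results touch them. GFP replicates 1 and 4 held little slow-fibre RNA: Myh7 was at 17.8 and 36.3 CPM there, against 533 and 892 CPM in GFP replicates 2 and 3. In the Yap1S5A libraries Myh7 was at 1550.3, 1049, 302 and 438 CPM. The summed level of 24 liver-specific transcripts was 319 and 173 CPM in Yap1S5A replicates 1 and 2, and 54.6 to 86.6 CPM in the other 6 libraries. Without GFP replicates 1 and 4 the counts were 176 higher and 262 lower, and without Yap1S5A replicates 1 and 2 they were 271 and 256. In bulk tissue, fewer cells of a type and less RNA per cell cannot be told apart, and the part of these library differences in the results below was not tested.

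To show where some of the named genes begin, the 250 bases before the start of 5 of them are printed 5′ to 3′ on the gene's own strand, from RefSeq sequence of build GRCm38.p6 (mm10). Casq1, Myh4, Mybph and Ucp3 are muscle genes that fell and Nmrk2 is a gene that rose. They were picked by hand after their values were seen, and no single ranking gives them. Nrep (-2.26) and Pdk4 (-2.14) fell more than Ucp3, Casq1 and Myh4. Ttr (3.24) and Slc4a1 (2.61) were called with larger rises than Nmrk2. Capitals mark CAGCTG, the E-box that the muscle factor MyoD is known to bind, and TATAAA, the TATA box, which also reads TTTATA on the other strand. The windows are chr1:172219896-172220145 on the minus strand (Casq1), chr11:67237562-67237811 on the plus strand (Myh4), chr1:134193198-134193447 on the plus strand (Mybph), chr7:100472741-100472990 on the plus strand (Ucp3) and chr10:81202038-81202287 on the minus strand (Nmrk2).
Casq1: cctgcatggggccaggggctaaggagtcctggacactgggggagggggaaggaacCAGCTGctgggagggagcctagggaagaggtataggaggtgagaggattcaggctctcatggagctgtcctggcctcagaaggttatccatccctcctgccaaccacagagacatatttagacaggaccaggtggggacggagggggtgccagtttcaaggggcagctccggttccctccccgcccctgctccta
Myh4: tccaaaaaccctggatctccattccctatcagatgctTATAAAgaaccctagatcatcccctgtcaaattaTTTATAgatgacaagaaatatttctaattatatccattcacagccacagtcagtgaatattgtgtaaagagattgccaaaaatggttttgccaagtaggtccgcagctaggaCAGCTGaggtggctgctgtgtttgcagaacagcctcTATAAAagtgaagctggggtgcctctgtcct
Mybph: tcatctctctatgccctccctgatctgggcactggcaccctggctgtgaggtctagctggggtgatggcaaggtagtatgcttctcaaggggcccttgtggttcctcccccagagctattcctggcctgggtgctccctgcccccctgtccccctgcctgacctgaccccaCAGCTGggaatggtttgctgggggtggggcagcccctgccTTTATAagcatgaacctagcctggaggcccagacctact
Ucp3: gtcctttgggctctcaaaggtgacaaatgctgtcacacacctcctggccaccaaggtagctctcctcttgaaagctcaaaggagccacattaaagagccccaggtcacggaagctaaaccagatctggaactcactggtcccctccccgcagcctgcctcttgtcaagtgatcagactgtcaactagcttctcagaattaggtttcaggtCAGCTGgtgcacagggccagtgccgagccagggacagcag
Nmrk2: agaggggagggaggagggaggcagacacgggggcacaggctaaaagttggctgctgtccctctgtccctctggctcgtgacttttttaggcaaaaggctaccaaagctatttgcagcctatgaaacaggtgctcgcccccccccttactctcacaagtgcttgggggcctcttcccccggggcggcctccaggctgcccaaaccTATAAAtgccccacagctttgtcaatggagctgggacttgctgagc

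Each of the 4 genes that fell has 1 CAGCTG in this window, beginning at -195 in Casq1, -67 in Myh4, -79 in Mybph and -40 in Ucp3, counted from -1 at the base before the start. Nmrk2 has none. Myh4 has a TATA box at -31 and further copies at -213 and -179, Mybph has one at -39 and Nmrk2 one at -46. Promoters were matched by symbol for 9043 of the 12121 tested genes (74.6%). CAGCTG stood in 11.8% of them, in 15.4% of those of genes called higher and in 15.7% of those called lower, so the shares were alike in both directions. TATAAA on either strand stood in 6.47% of all, 8.23% of the higher and 6.65% of the lower. The genes printed above were picked by hand, so their matches do not describe the other genes called. A match describes these letters and not binding.

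Myh4 and 4 other genes of the fast fibre list were called lower under the Yap1S5A vector. Myh4, the myosin heavy chain of the fastest fibres, was at 42102, 45630.1, 45957 and 37730.5 CPM against 104051, 73045, 71936 and 88145 CPM. Every Yap1S5A library lay far below every GFP library, a log2 fold change of -0.98 ± 0.13 (edgeR adjusted p = 7.65e-04). Of 13 fast fibre sarcomere genes 5 fell and 0 rose, with a median of -0.25 against 0.005 over all genes tested: Myh4, the light chain genes Myl1 (-0.64 ± 0.14) and Mylpf (-0.55 ± 0.13), Mybpc2 (-0.42) and the calcium buffer gene Pvalb (-0.76 ± 0.19). Myl1 ran from 4926 to 6201 CPM against 6859 to 11138 CPM. By DESeq2 6 were lower, and 8 were lower and 0 higher at an unadjusted p under 0.05. Of all genes tested edgeR called 4.82% lower. Calls in this list lean on some libraries, since 2 to 6 genes were called when 1 library was left out. Without GFP replicates 1 and 4 only Myh4 of the named genes stayed called (-0.77, adjusted p = 0.0073), with Myl1 at an adjusted p of 0.105, Mylpf at 0.159 and Pvalb at 0.135. Mybpc2 (adjusted p = 0.0487) kept its call in the fit lacking GFP replicate 3 but in none of the other 7 (0.0605 to 0.135). Dropping Yap1S5A replicate 1 (0.0552), Yap1S5A replicate 3 (0.0541) or GFP replicate 4 (0.0774) left Mylpf short of the threshold. Pvalb was called only with Yap1S5A replicates 2 to 4 and GFP replicates 1, 2 and 4 all present (0.0513 to 0.0628 lacking 1 of them). In the fit over all 16 libraries no gene of this list was called, and Myh4 had an adjusted p of 0.501.

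The slow fibre genes did not pass in either direction. Of 12 tested, edgeR called 0, with 0 at an unadjusted p under 0.05 and 0 by DESeq2, although 11 had positive values and the median was 0.94. Myh7 had a log2 fold change of 1.18 ± 1.29 (adjusted p = 0.653) and the slow troponin T gene Tnnt1 of 1.04 ± 1.22 (0.679). Both groups spread widely. Tnnt1 was at 260, 128, 44.2 and 72.7 CPM in the Yap1S5A libraries, and in the GFP libraries at 3.54 and 6.41 CPM in replicates 1 and 4 and at 89.1 and 147 CPM in replicates 2 and 3. The intermediate myosins went the same way: Myh1 was at 2123 and 2573 CPM in GFP replicates 1 and 4, and between 5431 and 9095 CPM in the other 6 libraries. Myh2 ran from 1755 to 4952 CPM in the Yap1S5A libraries and was at 260.2 and 384 CPM in GFP replicates 1 and 4. The summed slow fibre level overlapped between the vectors, at 1972 to 5177 CPM against 593 to 3974 CPM.

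**Figure D2:**
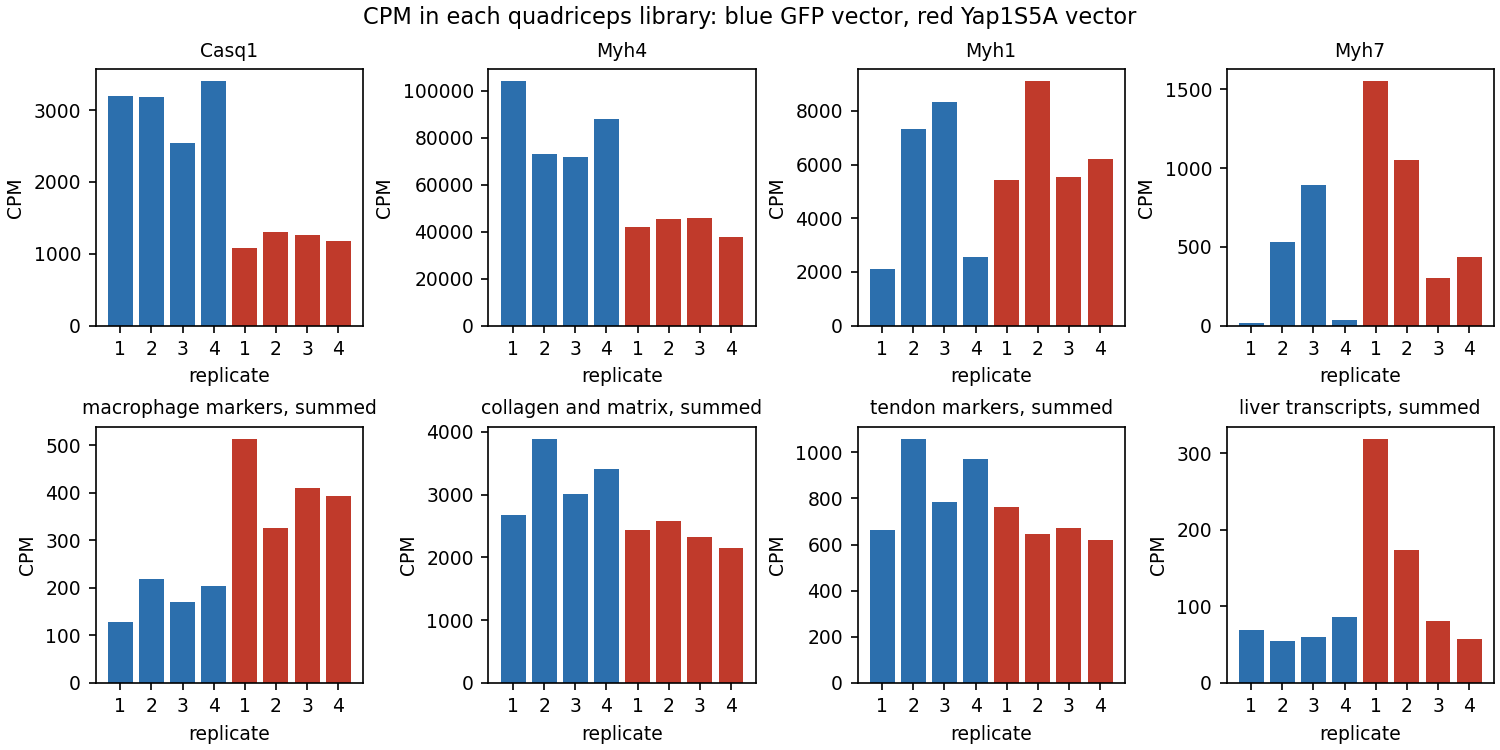
Level in CPM (y axis, from 0) of 4 genes and 4 summed marker lists in each quadriceps library (x axis, replicate number), blue for the GFP and red for the Yap1S5A vector. Casq1 and Myh4 are low in all 4 red bars and the summed macrophage markers high in all 4 (325 to 514 against 128 to 218 CPM), whereas Myh7 is low in GFP replicates 1 and 4 and the liver transcripts are high in Yap1S5A replicates 1 and 2.

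Genes of calcium storage and release in the fibre fell with Casq1 in front. Casq1 encodes calsequestrin 1, which holds calcium inside the sarcoplasmic reticulum. It lies on chromosome 1 from 172209894 to 172219895 (mm10) and was at 1083, 1300.3, 1266 and 1181 CPM against 3194, 3188, 2537 and 3398 CPM. The 4 Yap1S5A libraries sat close together, far below the lowest GFP library. Its log2 fold change of -1.35 ± 0.11 had an edgeR adjusted p of 5.89e-05 and was called under every alternative, with -1.25 (5.4e-04) without GFP replicates 1 and 4. Of 20 genes tested in the calcium list edgeR called 7 lower and 0 higher, beside 4.82% and 4.21% of all genes tested. The list's median was -0.29, and 11 and 1 had an unadjusted p under 0.05. DESeq2 called 9 lower and 1 higher. Stac3, needed for coupling of the calcium channel to release, was at 220.3, 218, 233 and 213 CPM against 323, 328, 293 and 357 CPM (-0.56 ± 0.087, adjusted p = 0.00182). The sarcalumenin gene Srl fell by 0.53 on the log2 scale and the junctophilin genes Jph1 and Jph2, which tie the membrane systems together, stood at -0.53 and -0.57. Camk2a (-0.58) and the histidine-rich calcium binding protein gene Hrc (-0.31) made up the rest. Camk2a was short of the threshold lacking Yap1S5A replicate 1 or 4 or GFP replicate 4 (0.0503 to 0.0623), and Hrc lacking any single library other than Yap1S5A replicate 4 (0.0534 to 0.13). The calcium pump gene Atp2a1 was at 28849 to 36160 CPM against 34687 to 44413 CPM and was not called (-0.25 ± 0.11, adjusted p = 0.197). Without GFP replicates 1 and 4 the list had 4 lower, and in the fit over all 16 libraries 2.

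The largest fall among called genes with a mean of at least 5 CPM and no overlap between the vectors was that of Mybph, a myosin-binding protein of the thick filament. Mybph was at 64.2, 95, 90.1 and 51.6 CPM against 460.5, 507, 327 and 573 CPM, a log2 fold change of -2.63 ± 0.24 (adjusted p = 7.55e-04). Its exons share 36.2% of their length with Adora1 on the other strand, and the strand setting of the counting is not given, so part of these reads may belong there. Actc1, the cardiac actin gene, fell from 344 to 1137 CPM down to 102 to 217 CPM (-2.07 ± 0.45, adjusted p = 0.0394), a wide spread. Its call ended without any 1 of the Yap1S5A libraries (0.0664 to 0.102) or GFP replicate 1, 2 or 4 (0.053 to 0.0843). Of all genes tested 4.82% were called lower and 4.21% higher. Among 25 sarcomere scaffold and Z-disc genes 2 fell, Myoz3 (-1.13 ± 0.11, adjusted p = 1.22e-04) and Obsl1 (-0.60 ± 0.11, 0.00443). Another 2 of them rose, Myom1 (0.45 ± 0.10) and Des (0.32 ± 0.093), of which Des missed the threshold in fits lacking any single library other than GFP replicate 1 (0.0693 to 0.149) and Myom1 without GFP replicate 4 (0.052).

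**Figure D3:**
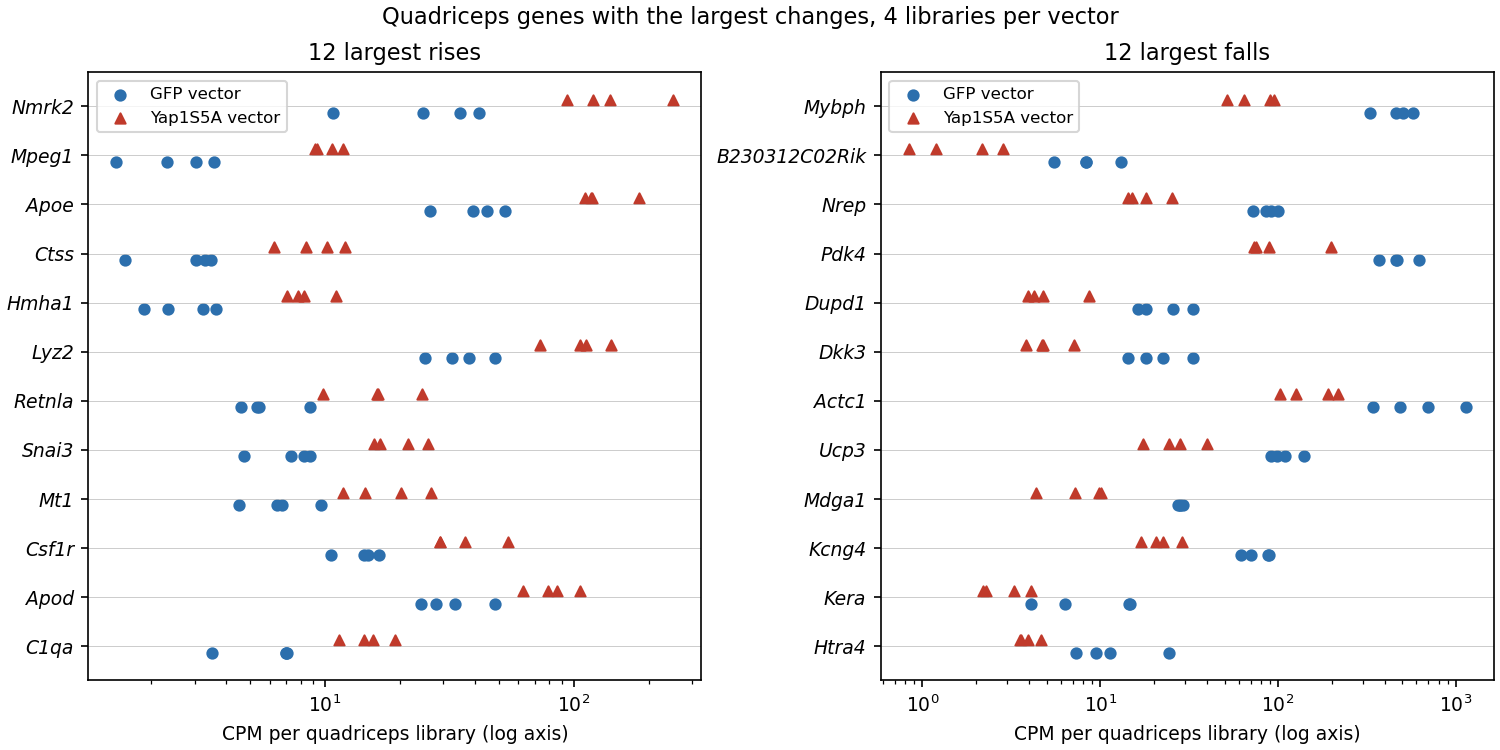
CPM in each quadriceps library (x axis, log scale) of the 12 genes with the largest rise and the 12 with the largest fall by the rule given in the methods, blue circles for the GFP and red triangles for the Yap1S5A vector. The 4 libraries of a vector lie wholly on 1 side of the 4 of the other, which the rule required.

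Other large falls included a potassium channel subunit, a phosphatase and several secreted or surface proteins. Kcng4, a modifying subunit of voltage-gated potassium channels, was at 16.9, 29, 22.5 and 20.6 CPM against 62, 89.4, 70.2 and 87.5 CPM (-1.80 ± 0.17, adjusted p = 1.76e-04). Dupd1, a dual-specificity phosphatase gene, was at 3.93 to 8.65 CPM against 16.2 to 33.1 CPM (-2.13 ± 0.31, 0.00523). Nrep, a small neuronal regeneration protein gene, was at 14.4 to 25.4 CPM against 72.1 to 99.4 CPM (-2.26 ± 0.18, 1.22e-04). Those groups were far apart, and all of these calls held when any single library was left out. Mdga1, a membrane-anchored immunoglobulin protein, was at 4.33 to 10.1 CPM against 27.3 to 29.3 CPM (-1.86 ± 0.21). Dkk3, of the Dickkopf family of secreted proteins, stood at -2.11 ± 0.28 and the unannotated transcript B230312C02Rik at -2.32 ± 0.36. Htra4, a secreted serine protease gene, was at -1.75 ± 0.37 (0.0226) and missed the threshold in fits lacking any single Yap1S5A library (0.051 to 0.0839). Tfrc, the transferrin receptor gene through which cells take up iron, was at 80.7, 69.1, 64.7 and 57.8 CPM against 167, 213, 224 and 155 CPM. All 4 Yap1S5A libraries lay far below the lowest GFP library, a log2 fold change of -1.48 ± 0.14 (adjusted p = 1.22e-04).

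The fuel genes with the largest changes both fell. Pdk4 encodes the kinase that shuts pyruvate dehydrogenase and is known to rise in fasted muscle. It was at 88.6, 198, 75.3 and 73.5 CPM against 458, 369, 467 and 623 CPM, a fall of 2.14 ± 0.39 on the log2 scale (adjusted p = 0.021). Yap1S5A replicate 2 lay above the other 3 but still under every GFP library. The call ended without Yap1S5A replicate 1 (0.0702), Yap1S5A replicate 4 (0.0543) or GFP replicate 4 (0.0551), and without GFP replicates 1 and 4 (-1.95, adjusted p = 0.144). Ucp3, a carrier of the inner mitochondrial membrane that is known to rise with fatty acid supply, lies on chromosome 7 from 100472991 to 100486432. It was at 17.3, 39.8, 28 and 24.5 CPM against 99.2, 90.8, 109 and 140 CPM (-2.01 ± 0.25, adjusted p = 0.00277). Ucp3 was called under all alternatives that were run, with -1.88 (0.037) without GFP replicates 1 and 4.

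Of 25 genes of pyruvate dehydrogenase and glycolysis 8 fell and 2 rose, beside 4.82% and 4.21% of all genes tested. The list's median was 0.009. Those that fell, besides Pdk4, are mostly of the later steps of glycolysis: Tpi1 (-0.70 ± 0.097, adjusted p = 7.88e-04), Pgk1 (-0.62 ± 0.095), Pgam2 (-0.61 ± 0.11), Eno3 (-0.52), Pkm (-0.55) and the lactate dehydrogenase gene Ldha (-0.71 ± 0.11). The triosephosphate isomerase gene Tpi1 was at 935, 1179, 1079 and 1057 CPM against 1588, 1806, 1690.5 and 1843 CPM. Ldha was at 1662, 2094, 1943 and 1909 CPM against 3498, 2980, 2658 and 3273 CPM. In both genes the groups were apart by a wide margin. The pyruvate dehydrogenase subunit gene Dlat was at -0.37 and was called in the fit lacking GFP replicate 1 but in none of the other 7 (0.0562 to 0.151). Hexokinase 2 (Hk2, 0.44 ± 0.092) and Pfkl, a phosphofructokinase subunit (0.79 ± 0.16), rose, both short of the threshold without GFP replicates 1 and 4 (adjusted p = 0.108 and 0.0746). The insulin-responsive glucose carrier gene Slc2a4 was not called (-0.04 ± 0.082, adjusted p = 0.808).

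Few genes of the respiratory chain and citric acid cycle lists were called. Of 39 nuclear respiratory chain subunits 1 fell, the cytochrome c gene Cycs (-0.59 ± 0.10, adjusted p = 0.00371), and the median was 0.032. Of 17 citric acid cycle genes 1 fell, Idh3a (-0.34 ± 0.085, adjusted p = 0.0224). Its call ended without Yap1S5A replicate 1 or 3 or GFP replicate 2 or 3 (0.0507 to 0.0788). Of 36 fatty acid genes 3 rose, the acyl-CoA dehydrogenase genes Acadm (0.59 ± 0.13) and Acads (0.52 ± 0.092) and Eci2 (0.47 ± 0.11). Another 2 fell, Ucp3 and Cpt1a, a fatty acid entry enzyme of mitochondria (-0.59 ± 0.16). The list's median was 0.22 with 27 of 36 values positive. At an unadjusted p under 0.05, 11 were higher and 2 lower (4 and 2 by DESeq2). Over all genes tested 4.21% were called higher and 4.82% lower. The summed level of the fatty acid list overlapped between the vectors, at 3538 to 5087 CPM against 2539.7 to 4477 CPM. Acadm (0.056) and Eci2 (0.052) lost their calls without GFP replicate 4, and Cpt1a without Yap1S5A replicate 2, 3 or 4 or GFP replicate 2 or 4 (0.0607 to 0.12). The coactivator gene Ppargc1a, known to drive mitochondrial genes, was not called (-0.22 ± 0.12, adjusted p = 0.285). Of 17 glycogen genes 3 rose and 3 fell, among them Ppp1r3d, a glycogen-targeting phosphatase subunit (1.67 ± 0.25, adjusted p = 0.0014), and the phosphoglucomutase listed as Pgm2 (-0.77 ± 0.14, 0.00463).

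Of 22 amino acid and polyamine genes tested 5 rose and 4 fell, beside 4.21% and 4.82% of all genes tested. The spermine oxidase gene Smox was at 139, 200.2, 160.4 and 142 CPM against 464, 671, 356 and 643 CPM, a log2 fold change of -1.74 ± 0.21 (adjusted p = 0.00151). Odc1, the first enzyme of polyamine synthesis, was at 71.7 to 82.5 CPM against 109.8 to 175 CPM (-0.89 ± 0.15, 0.00336). The muscle AMP deaminase gene Ampd1 was at 701, 665, 682 and 819.6 CPM against 1496, 1398, 1098 and 1451 CPM (-0.92 ± 0.11, 3.48e-04). These 3 genes and the alanine transaminase gene Gpt2 (-0.74 ± 0.16, 0.0151) were lower in all 4 Yap1S5A libraries. The branched-chain keto acid dehydrogenase genes Bckdhb (0.82 ± 0.12, adjusted p = 0.00129), Bckdha (0.57) and Dbt (0.34), the transaminase gene Bcat2 (0.31) and the amino acid carrier gene Slc7a5 (1.26) rose. Bckdhb was at 26.3, 26.4, 30.8 and 37.1 CPM against 16.4, 17, 19 and 16.1 CPM. Leaving out single libraries ended the calls of Dbt (0.0541 to 0.0678 lacking Yap1S5A replicate 3 or GFP replicate 1 or 4), of Slc7a5 (0.0538 to 0.0725 lacking Yap1S5A replicate 1, 2 or 4 or GFP replicate 1 or 4) and of Bcat2 (0.057 to 0.129 lacking any but GFP replicate 3). Without GFP replicates 1 and 4 the list had 1 higher and 3 lower.

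Nmrk2, the muscle nicotinamide riboside kinase of the NAD salvage route, had the largest rise among called genes with a mean of at least 5 CPM and no overlap between the vectors. It was at 119.9, 252, 140.4 and 94.4 CPM against 10.7, 41.8, 35.1 and 24.8 CPM (2.43 ± 0.51, adjusted p = 0.0369). The groups did not overlap but each varied over 2-fold, and the call ended without any single library other than GFP replicate 1 (0.0545 to 0.111). Atcayos on the other strand covers 14.7% of its exonic length. Of 13 NAD genes tested, Nmrk2 rose and the mitochondrial deacetylase gene Sirt3 fell (-0.47 ± 0.12, adjusted p = 0.0219), beside 4.21% and 4.82% of all genes. Sirt3 was short of the threshold without Yap1S5A replicate 3 (0.0637) or GFP replicate 3 or 4 (0.0508 and 0.0507).

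The classic atrophy ligases did not pass the threshold. Fbxo32 (atrogin-1) was at 420.4, 474, 712 and 694 CPM against 512, 303, 346 and 415 CPM, overlapping between the vectors (0.54 ± 0.21, adjusted p = 0.159). DESeq2 called it (0.0379), as did the fit without Yap1S5A replicates 1 and 2 (0.023). Trim63 (MuRF1) was at 254 to 304 CPM against 252 to 601 CPM (-0.46 ± 0.24, 0.303). Of 23 atrophy and muscle ubiquitin ligase genes 2 rose, Eif4ebp1 and Fbxo31, and 3 fell, among them Klhl31 and Trim55. Over all genes tested 4.21% were called higher and 4.82% lower. Klhl31, a Kelch protein gene of muscle, was at 189 to 247 CPM against 288 to 375 CPM (-0.63 ± 0.11, adjusted p = 0.00353). Eif4ebp1, the brake on cap-dependent translation, was at 57.6, 55.6, 80.7 and 121 CPM against 33.6, 34.8, 35.9 and 27.7 CPM (1.26 ± 0.25, 0.021). All its Yap1S5A values were above all GFP values, but the call ended without Yap1S5A replicate 3 or GFP replicate 1, 2 or 4 (0.0535 to 0.0743). Fbxo31 (0.34 ± 0.098) stayed called in fits lacking Yap1S5A replicate 1 or GFP replicate 1 and lost it without any other (0.0577 to 0.124).

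Proteasome genes were higher where they passed, and autophagy genes went both ways. Of 32 proteasome subunits 5 rose and 0 fell by edgeR, with a median of 0.17 and with 12 higher and 0 lower at an unadjusted p under 0.05. The regulatory subunit gene Psmd2 was at 329.6, 347, 381 and 445 CPM against 269, 248, 237 and 235 CPM (0.60 ± 0.10, adjusted p = 0.00279), and it was the 1 named member that held its call without any single library. Psmb2, Psmb3 and Psmb4 were at 0.43 to 0.44, but their calls leaned on single libraries. Psmb2 kept its call only without Yap1S5A replicate 1 (0.0569 to 0.125 otherwise), Psmb3 lost it without Yap1S5A replicate 3 or GFP replicate 2, 3 or 4 (0.0506 to 0.0803), and Psmb4 lost it without Yap1S5A replicate 3 or 4 or GFP replicate 1, 2 or 3 (0.0589 to 0.0743). Leaving out 1 library gave 1 to 7 proteasome genes called and DESeq2 gave 10. Of 29 autophagy and lysosome genes 5 rose and 1 fell. The lysosome regulator gene Tfeb was at 77.7, 86.5, 103 and 92.8 CPM against 67.8, 62, 58.8 and 58.8 CPM (0.54 ± 0.099, adjusted p = 0.00443). Map1lc3b (0.47 ± 0.11) and the mitophagy receptor gene Bnip3 (0.55 ± 0.12) also rose, as did Ctss, which is a macrophage marker too. The autophagy conjugation gene Atg12 fell (-0.37, 0.0239), short of the threshold lacking Yap1S5A replicate 1 or 2 or GFP replicate 4. Of 41 cytosolic ribosomal protein genes 2 rose, a share near the 4.21% of all genes. Their median was 0.18 with 36 of 41 values positive, and 10 were higher and 1 lower at an unadjusted p under 0.05. Rpl22 was among the 2 called (0.34, adjusted p = 0.0447). It missed the threshold in fits lacking Yap1S5A replicate 1, 3 or 4 or GFP replicate 1, 2 or 4 (0.0876 to 0.122).

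Insulin and mTOR genes went both ways, 3 rising and 3 falling of 27, beside 4.21% of all genes called higher and 4.82% lower. The kinase gene Akt1 was at 84.3, 88.3, 87.2 and 101 CPM against 49.9, 60.1, 52.7 and 52.5 CPM (0.74 ± 0.092, adjusted p = 4.32e-04). Igfbp5, a binding protein of IGF1, was at 236, 289.8, 316 and 229 CPM against 709, 920.3, 509.7 and 762 CPM (-1.44 ± 0.17, 7.65e-04). Deptor, an inhibitor of mTOR, was at -0.65 ± 0.12 (0.00443). These 3 genes held their calls in every alternative run, and their groups lay apart. In the myostatin list Mstn, which encodes the muscle growth inhibitor, was at 44.7 to 67.1 CPM against 57.8 to 100.2 CPM and missed the threshold (-0.53 ± 0.17, adjusted p = 0.0874), although DESeq2 called it (0.0233). Its signal transducer gene Smad3 fell (-0.61 ± 0.11, 0.00439).

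Glucocorticoid-responsive genes, which steroid treatment is known to raise in muscle, were split, with 4 of 26 rising and 4 falling. Over all genes tested 4.21% were called higher and 4.82% lower. Zbtb16 was at 41.9, 37.2, 40.2 and 33.3 CPM against 87.7, 78.8, 139 and 97.9 CPM (-1.40 ± 0.16, adjusted p = 6.75e-04). Nfkbia, the inhibitor of NF-kB, went the other way, at 36.9, 31.1, 35.3 and 33.8 CPM against 13.1, 17.8, 19.2 and 16.6 CPM (1.04 ± 0.12, 1.96e-04). Errfi1 rose by 0.59 ± 0.10 (0.00312), and the metallothionein genes Mt1 (1.43 ± 0.29, 0.018) and Mt2 (1.0 ± 0.20, 0.00783) rose too. Mt1 missed the threshold in fits lacking GFP replicate 1 (0.0621) or 2 (0.0576). Dusp1 (-0.52 ± 0.12, 0.0541 without Yap1S5A replicate 2) and Klf9 (-0.40 ± 0.11) were the other members that fell besides Pdk4. Klf9 kept its call only without GFP replicate 2 and stood at 0.0577 to 0.106 without any other single library.

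The cytokine and interferon response genes that edgeR called were all lower, beside 4.82% of all genes called lower. Of 22 IL6, STAT3 and gp130 response genes edgeR called 0 higher (2 at an unadjusted p under 0.05, and 3 by DESeq2 over the 27 in the counts) and 3 lower: Jak2 (-0.76 ± 0.10, adjusted p = 7.65e-04), Lifr and Jak1. Lifr missed the threshold in fits lacking Yap1S5A replicate 1, 2 or 4 or GFP replicate 1 or 4 (0.0697 to 0.115), and Jak1 without any single library other than GFP replicate 3 (0.0711 to 0.139). Socs3, the feedback inhibitor that STAT3 is known to induce, was at 2.17 to 3.94 CPM against 2.21 to 3.59 CPM (-0.02 ± 0.25, 0.972). Cish, a feedback gene of STAT5, was at 2.19, 1.23, 5.33 and 1.55 CPM against 18.8, 18.2, 4.64 and 45.8 CPM. GFP replicate 3 fell among the Yap1S5A values, and the log2 fold change of -3.10 ± 0.82 was not called (0.0734), although DESeq2 (0.00126), the fit over all 16 libraries (0.042) and the fit without GFP replicate 3 (0.0303) called it. Of 30 interferon genes 2 fell, Gbp7 (-1.13 ± 0.19) and Ifi35 (-0.42 ± 0.12), and 0 rose. Ifi35 kept its call only without GFP replicate 3 (0.065 to 0.142 otherwise). At an unadjusted p under 0.05 there were 4 higher and 3 lower interferon genes, and DESeq2 called 0 and 3. Of 25 heat shock genes 4 fell and 0 rose, with 0 higher at an unadjusted p under 0.05 or by DESeq2. The constitutive chaperone gene Hspa8 was at 587, 429.5, 429.7 and 399 CPM against 769, 853, 788 and 856 CPM (-0.82 ± 0.12, 9.32e-04), and Hsph1 was at 64 to 91 CPM against 110.4 to 183 CPM (-0.85 ± 0.15, 0.00523).

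Genes of the Yap1 pathway itself were called at a share near that of all genes (9.03%). Of 25 known YAP-TEAD target genes 2 rose and 1 fell, with a median of 0.18, and of 20 Hippo pathway genes 2 rose and 0 fell. Cyr61 (Ccn1) was at 33.9, 46.1, 38.9 and 42 CPM against 17.3, 22.5, 26.9 and 12 CPM (1.03 ± 0.21, adjusted p = 0.018), missing the threshold in fits lacking Yap1S5A replicate 4 (0.0675) or GFP replicate 1 (0.0587). Amotl2 rose by 0.56 ± 0.11 (0.00591) and Amotl1 fell by 0.39 ± 0.11 (0.037), the latter short of the threshold without Yap1S5A replicate 2, 3 or 4 or GFP replicate 1, 2 or 4 (0.0552 to 0.0963). Ctgf (Ccn2), a standard target, was at 22.1 to 30.7 CPM against 13 to 25.3 CPM and was not called (0.26 ± 0.19, 0.452). The Hippo genes that rose were the DNA-binding partner gene Tead4 and the Yap1 relative Wwtr1 (TAZ). Tead4 was at 10.6, 10.3, 8.93 and 11.6 CPM against 5.62, 6.02, 4.91 and 4.73 CPM (0.96 ± 0.14, 0.00138) and Wwtr1 at 48.6, 45.6, 42.4 and 44.5 CPM against 31.5, 33.4, 33.6 and 25.1 CPM (0.55 ± 0.10, 0.00453). Both were higher in all 4 Yap1S5A libraries and were called in every alternative.

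Macrophage genes were the clearest group to rise. Of 31 listed, 27 were tested and 19 rose, with 0 falling and a median of 1.17, beside 4.21% of all genes called higher. At an unadjusted p under 0.05 26 were higher and 0 lower, and DESeq2 called 22 and 0 over the 29 in the counts. Their summed level was 514, 325, 409 and 392 CPM in the Yap1S5A libraries and 128, 218, 171 and 205 CPM in the GFP libraries, without overlap. Mpeg1, a pore-forming protein of phagocytes, was at 11.8, 9.3, 9.18 and 10.7 CPM against 1.45, 3.59, 2.32 and 3.04 CPM (1.97 ± 0.22, adjusted p = 1.80e-04). Ctss, a lysosomal protease, was at 12, 6.26, 8.43 and 10.2 CPM against 1.58, 3.47, 3.32 and 3.04 CPM (1.70 ± 0.25, 0.00157). In each, the lowest Yap1S5A library was well above the highest GFP library. The lysozyme gene Lyz2 was at 141, 73.4, 112 and 106 CPM against 25.3, 48.3, 32.4 and 38.1 CPM (1.59 ± 0.24, 0.00587). The defining markers Cd68 (1.16 ± 0.26, 0.013), Csf1r (1.40 ± 0.22, 0.00486) and Adgre1, which encodes F4/80 (1.38 ± 0.26, 0.00535), rose, and so did the complement gene C1qa (1.30 ± 0.22, 0.00354) and Tyrobp (1.89 ± 0.27, 0.00115). Leaving out any 1 library left 16 to 21 of these genes called, leaving out GFP replicates 1 and 4 left 11 and Yap1S5A replicates 1 and 2 left 14. The block by replicate number, for which no pairing of these samples is known, left 14.

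Other genes of the same kind rose with them. Of 7 MHC class II genes 4 rose, with H2-Aa at 28.3, 22.7, 28.7 and 33.3 CPM against 13.7, 17.3, 11.3 and 17.6 CPM (0.91 ± 0.15, adjusted p = 0.00279) and Cd74 at 0.84 ± 0.11 (7.65e-04). Apoe, a lipid carrier made by macrophages among other cells, was at 184, 111, 117 and 119 CPM against 26.5, 52.9, 45 and 39.4 CPM (1.70 ± 0.24, 0.0044). Retnla, a secreted protein of alternatively activated macrophages, was at 9.81 to 24.5 CPM against 4.61 to 8.74 CPM (1.48 ± 0.29, 0.0128). The minor histocompatibility antigen gene Hmha1 (Arhgap45, 1.62 ± 0.22), the zinc finger gene Snai3 (1.46 ± 0.20) and the apolipoprotein gene Apod (1.31 ± 0.24) completed the 12 largest rises by the rule given in the methods. Of other blood cell lists, 1 of 13 neutrophil genes was tested and not called (Mmp9, -0.34 ± 0.32) and 1 of 14 lymphocyte genes was tested and rose, the common leukocyte gene Ptprc (1.51 ± 0.30, 0.00733). Of 24 endothelial genes 2 rose, Tek and Cav1, and 22 were not called, beside 4.21% of all genes called higher. The endothelial median was 0.29 with 19 of 24 values positive, 11 were higher and 0 lower at an unadjusted p under 0.05, and leaving out 1 library gave 0 to 6 called. Their summed level overlapped, at 971 to 1219 CPM against 844 to 1129.8 CPM. Tek missed the threshold in fits lacking Yap1S5A replicate 1 or 2 or GFP replicate 1 or 4 (0.055 to 0.0658), and Cav1 without any of these or Yap1S5A replicate 4 (0.0746 to 0.105). Of 20 adipocyte genes 1 rose, the lipase gene Pnpla2 (0.60 ± 0.13), which muscle also expresses, and the list's summed level overlapped.

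Some markers of vessel wall cells rose as well, beside 4.21% of all genes called higher and 4.82% lower. Of 13 smooth muscle and pericyte genes tested edgeR called 3 higher and 0 lower, with a median of 0.35 and 12 of 13 values positive, and 6 and 0 had an unadjusted p under 0.05. DESeq2 called 4 and 0. Their summed level was 5304, 5128, 4882 and 4962 CPM in the Yap1S5A libraries and 4380.5, 4318, 4168 and 3698 CPM in the GFP libraries, without overlap. Acta2 made up 37.6 to 57 CPM of that sum in the Yap1S5A libraries, so the sum mostly reads other members. These include Des, which muscle fibres also carry, so the sum is no measure of vessel wall cells. The smooth muscle actin gene Acta2 was at 43.9, 53.8, 37.6 and 57 CPM against 17.9, 33.2, 29.1 and 23.1 CPM (0.89 ± 0.19, adjusted p = 0.0193), and the actin-binding gene Tagln, whose exons share 61.5% of their length with other annotated genes, stood at 0.91 ± 0.21 (0.0231). Des was the third gene called. Without Yap1S5A replicate 2 or 4 or GFP replicate 4, or without GFP replicates 1 and 4, edgeR called none of the 13. Of 16 genes of fibro-adipogenic progenitors, the matrix-making cells between fibres, 3 fell, Dpt (-0.47), Clec3b (-0.46) and Lum, which the tendon list holds too. Of 3 red blood cell genes tested Slc4a1 rose (2.61 ± 0.63, adjusted p = 0.0228) and Bpgm fell (-0.50 ± 0.079, 0.00189). The Slc4a1 call ended without Yap1S5A replicate 2 (0.067) or GFP replicate 1 (0.061) or 3 (0.051). The summed level was 61.8 to 69.97 CPM against 82.9 to 89.6 CPM. The defining marker Alas2 was at 2.48 to 6.65 CPM against 0.984 to 3.91 CPM. Hba-a1 is absent from the counts, so the sum is no measure of red blood cell content. The part of these cell types in the macrophage and matrix results was not tested.

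Matrix genes moved the other way. Of 38 collagen and matrix genes edgeR called 9 lower and 0 higher, beside 4.82% and 4.21% of all genes tested. The list's median was -0.38, and DESeq2 called 14 and 0. At an unadjusted p under 0.05 there were 21 and 0. Col3a1, a fibrillar collagen gene, was at 130.4, 182, 135 and 111 CPM against 249, 339.9, 272 and 294 CPM (-1.05 ± 0.15, adjusted p = 0.00122). Col1a2 was at 82.8, 105, 93.2 and 74.5 CPM against 157, 329, 183 and 302 CPM (-1.45 ± 0.25, 0.011), and Col1a1 stood at -1.53 ± 0.34 (0.0369). The groups were apart for all 3, but Col1a1 missed the threshold in fits lacking any single Yap1S5A library (0.0618 to 0.112) or GFP replicate 4 (0.0974). Without GFP replicates 1 and 4 the list had 11 lower, and leaving out 1 library gave 6 to 16. Of 19 tendon genes edgeR called 5 lower and 0 higher, with a median of -0.59, and 9 and 0 had an unadjusted p under 0.05. DESeq2 called 8 and 0. The tendon factor gene Tnmd was at 2.89, 2.26, 3.16 and 4.11 CPM against 5.88, 10.4, 6.37 and 10.2 CPM (-1.40 ± 0.23, 0.00273), Col11a1 was at -1.49 ± 0.27 (0.00426) and the proteoglycan gene Lum at -0.90 ± 0.14 (0.00189). The proteoglycan gene Kera (-1.76 ± 0.45, 0.0467) missed the threshold in fits lacking any single library other than GFP replicate 1 or 3 (0.0668 to 0.147). The summed tendon level overlapped, at 621 to 763.6 CPM against 664 to 1059 CPM, and its part in the lower matrix values was not tested.

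**Figure D4:**
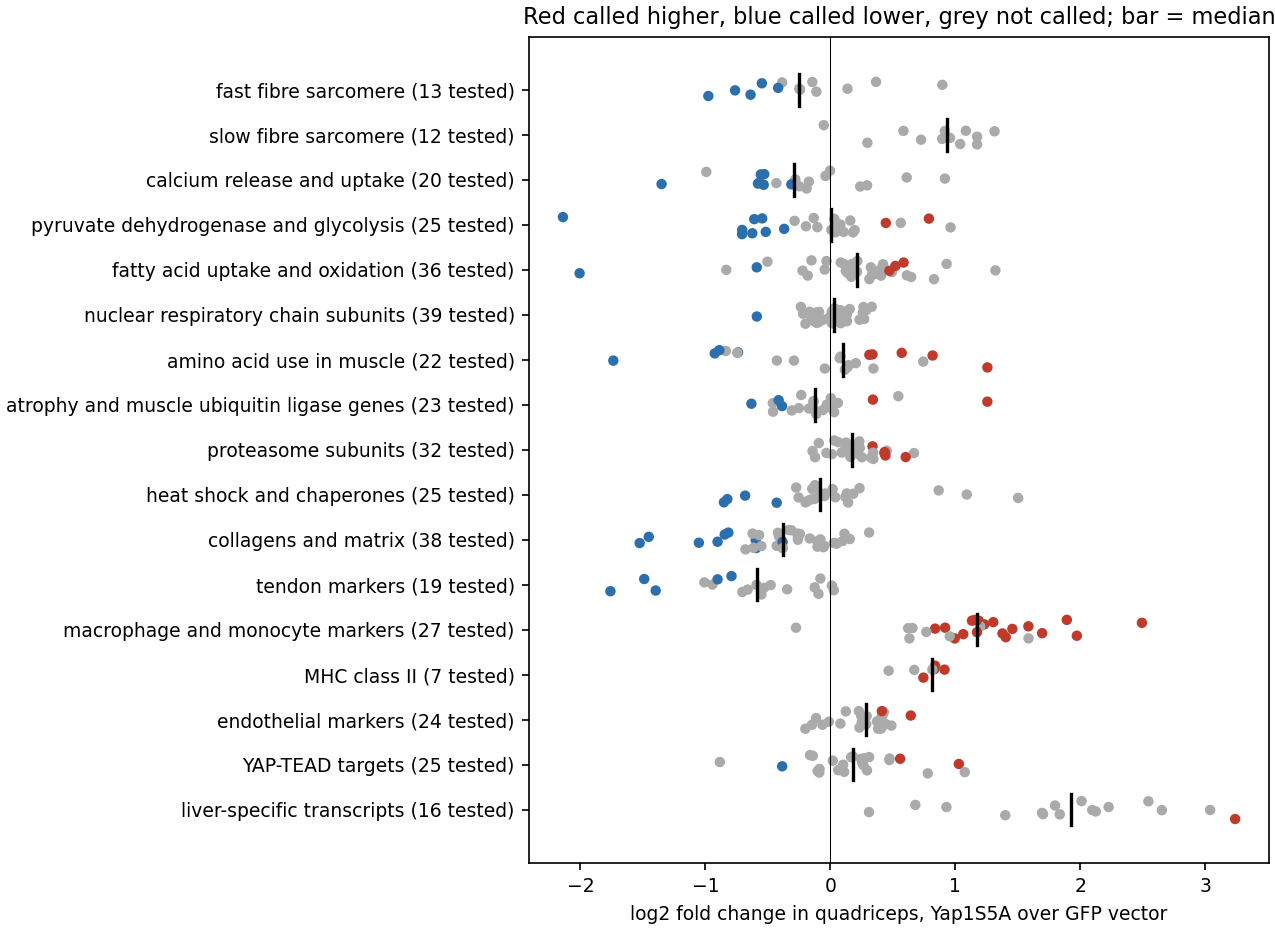
Log2 fold change in quadriceps (x axis, Yap1S5A over GFP vector) of each tested gene in 17 of the 49 lists (rows, number tested in brackets), red where called higher, blue where called lower and grey where not called, with a black bar at the median. The macrophage row lies almost wholly to the right of 0 with 19 red points, the collagen and tendon rows to the left, and the slow fibre and liver rows to the right with 0 and 1 called.

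Transcripts known from liver were read as markers of another tissue. All 16 that were tested had positive log2 fold changes, with a median of 1.92, but 1 was called, the transthyretin gene Ttr (3.24 ± 0.78, adjusted p = 0.0295). Its call ended without Yap1S5A replicate 2 (0.0591) or GFP replicate 2, 3 or 4 (0.0675 to 0.0933). The albumin gene Alb was at 103, 44.6, 19.3 and 13.9 CPM against 27.4, 14.4, 10.8 and 15.9 CPM (1.40 ± 0.72, 0.309). Yap1S5A replicates 1 and 2 were high and replicates 3 and 4 were within the GFP range. DESeq2, run without the low-count filter, called 15 of the 24 in the counts higher. In the edgeR fit without Yap1S5A replicates 1 and 2 the median was 0.36 with 0 called. In the same comparison 14 macrophage genes were still called.

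Remaining muscle lists changed in a few members, beside 4.21% of all genes called higher and 4.82% lower. Of 17 membrane channel and pump genes 3 fell, with the sodium pump subunit gene Atp1b2 at 168, 260.3, 253 and 239 CPM against 556, 470.5, 328 and 435 CPM (-0.96 ± 0.17, adjusted p = 0.00628). Of 24 dystrophin complex and membrane repair genes 5 fell and 1 rose, among them the sarcoglycan gene Sgcd (-0.72 ± 0.16, 0.0176), and Nos1, the neuronal nitric oxide synthase of muscle (0.54 ± 0.12, 0.0165), which was at an adjusted p of 0.0523 without Yap1S5A replicate 2. In the junction list the acetylcholinesterase gene Ache fell (-0.58 ± 0.11, 0.00523) and the receptor gene Lrp4 rose (0.52 ± 0.12, 0.0174, and 0.0568 or 0.051 without Yap1S5A replicate 1 or 2). Myod1, a master factor of myogenesis, rose by 0.48 ± 0.13 (0.0289), missing the threshold in fits lacking Yap1S5A replicate 3 or 4 or GFP replicate 1, 2 or 3 (0.0526 to 0.0972), and Mef2c fell by 0.44 ± 0.088 (0.00731). Of 19 clock genes 2 rose and 1 fell, with Npas2 among the higher (2.24 ± 0.55, 0.0273) and Per2 the lower (-0.78 ± 0.19, 0.0243). Npas2 was at 3.38, 3.42, 2.67 and 0.427 CPM against 0.332 to 0.758 CPM, so Yap1S5A replicate 4 lay within the GFP range. Per2 missed the threshold in fits lacking Yap1S5A replicate 2 or 3 or GFP replicate 2, 3 or 4 (0.0575 to 0.0736), and Npas2 without Yap1S5A replicate 1, 2 or 3 or GFP replicate 2, 3 or 4 (0.061 to 0.0822). The selenoprotein P gene Sepp1 (Selenop), a secreted factor, was at 296, 215, 251 and 233 CPM against 146, 148, 149.5 and 146 CPM (0.76 ± 0.10, 7.20e-04).

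Livers with the same vectors were used for the value beside a muscle gene, for the overlap of calls and in the fits over all 16 libraries. Of 12818 genes tested there 63.6% were called, 33.3% higher and 30.3% lower, so overlap with any list is common. Of 472 quadriceps genes called higher and tested in both tissues, 242 (51.3%) were also higher in liver, where they were 6.76% of 3582, and 123 (26.1%) were lower. Of 489 called lower, 148 (30.3%) were lower in liver, 4.46% of 3321, and 168 (34.4%) were higher, both near the shares of all liver genes tested. An interaction of vector and tissue, fitted over all 16 libraries, was called for 6558 of 13669 genes (48%) and for 672 of 1093 genes called in quadriceps. Collagen genes went in opposite directions, with Col3a1 at -1.05 in quadriceps and 3.94 in liver (interaction adjusted p = 6.77e-11). Macrophage genes rose in both, with Csf1r at 1.40 and 4.48 (7.49e-07) and Lyz2 at 1.59 and 4.36 (3.73e-07). For Akt1 (0.74 and 0.76, interaction adjusted p = 0.956) the values were close and no difference was called.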

How the data were processed

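Bulk quadriceps was frozen in liquid nitrogen, RNA was extracted with QIAzol and cleaned on RNeasy columns with DNase, and Ion Total RNA-Seq kit v2 libraries were made, per the labels' protocols. Tools listed in the submitters' processing notes are STAR 2.4.2a, featureCounts, Subread 1.5.0 and FastQC 0.11.5, with build mm10. Their parameters, the strand setting and how the 13701 genes were chosen were not given in the sources used here. Tests used the whole-number raw counts per gene that the authors deposited. Its scaled score columns, which the authors deposited beside them and which sum to 918004 to 1152078 in these libraries, served only to recover the authors' effective library sizes as an alternative.

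Groups come from the titles, and columns were joined to samples by barcode. The labels do not say that replicates are separate mice, so p-values may measure technical spread. Chi-square per degree of freedom between replicates was 12.2 to 52.9, so none was merged. Genes were filtered with filterByExpr and fitted with edgeR 4.0.16 in R 4.3.3 (TMM, robust quasi-likelihood, vector only, 8 libraries), with p-values adjusted by Benjamini-Hochberg over the 12121 genes tested. The common biological coefficient of variation was 0.159. Standard errors were computed as the absolute estimate divided by the square root of F. Levels between genes were not compared. In data simulated for this comparison over 12021 genes, 66, 66 and 65 genes were changed 1.5-, 2- and 4-fold. Of these 37.9%, 83.3% and 98.5% were recovered, and 7.1% of calls were false. Fewer genes were changed there than the 1094 called in the real data, so these shares need not hold for it. Single library values used an exact permutation test. Reads carry no molecular identifiers.

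Gene lists, 49 in all, and the rules were chosen with earlier results of these data known. Named genes are the 12 with the largest change in each direction among called genes with a mean of at least 5 CPM whose vectors do not overlap (338 higher and 505 lower qualified), the up to 4 called members of lowest p in each list and any called against it, Yap1, and the 5 interaction genes of lowest p. Mybpc2, Jph2, Camk2a, Hrc, Eno3, Pkm, Dlat, Bckdha, Dbt, Bcat2, Slc7a5, Fbxo32, Trim63, Mstn, Myh1, Myh2, Myh7, Tnnt1, Atp2a1, Socs3, Ctgf, Col1a1, Col1a2, Cd68, Adgre1, Alb, Ckm, Acta1, Cish, Ppargc1a and Slc2a4 were named for their role after their values were seen. Symbols of 21 genes had turned into dates, and these stayed in the fit unnamed. A few called genes are counted but not reported here by name. Alternatives were DESeq2 1.42.0, other scalings and filters, no robust shrinkage, a block of replicate numbers, a fit over 16 libraries and leaving out libraries; leaving out 2 libraries of a vector, and the deposited library sizes, were added after seeing the data. DESeq2 was run without the low-count filter, so its count for a list is over every listed gene in the counts, not only those edgeR tested. No column lacked a sample.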

Additional observations from a re-analysis of the deposited data

Results flagged for a closer look

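Among 468 groups of 4 libraries examined (genes and summed lists per vector), 22 (4.7%) held a library far from the other 3, by Dixon's test at its 95% critical value, and chance gives about 1 in 20. In GFP replicate 1 the outlying values were those of Ache (28.1 CPM), C1qa (3.54 CPM), Dnajb5 (296 CPM), Per2 (15.8 CPM) and Ppp1r15a (41.6 CPM), the number of genes with a count (13035), and the summed CPM of the circadian clock (1694), fibro-adipogenic progenitor (1355) and red blood cell (89.6) lists. In Yap1S5A replicate 1 they were Apoe (184 CPM), Cpt1a (7.17 CPM), Hspa8 (587 CPM) and Pvalb (3742 CPM). In Yap1S5A replicate 2 they were Col1a1 (76.9 CPM), H2-Eb1 (16.3 CPM), Pdk4 (198 CPM) and the summed red blood cell list (69.97 CPM). In Yap1S5A replicate 3 they were Col11a1 (1.92 CPM) and the summed iron, copper and metallothionein list (2691 CPM). In Yap1S5A replicate 4 they were Eci2 (86.4 CPM), Psmb2 (66.5 CPM) and Sgcd (11.1 CPM). GFP replicates 2, 3 and 4 had none.

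The interaction term compared the quadriceps and liver changes of 14 genes, Yap1 and those with the largest quadriceps changes by the rule in the methods that were also tested in liver. Of these 11 differed (edgeR adjusted p under 0.05), beside 6558 of 13669 genes tested and 672 of 1093 called in quadriceps. Apart from Yap1 they were picked for their quadriceps change, which enters the interaction, so the count is a description. The quadriceps minus liver difference in log2 fold change was -1.73 for Mpeg1, -2.58 for Ctss, -2.77 for Lyz2, -3.08 for Csf1r and -1.52 for C1qa, all of which rose in both tissues and more in liver. For Apoe it was 2.67, with a rise in quadriceps and a log2 fold change of -0.98 in liver. It was -3.10 for Nrep, -2.45 for Pdk4, -3.26 for Dkk3 and -6.15 for Mdga1, genes that fell in quadriceps. Another 5 genes were picked for the lowest interaction p among those called in quadriceps, so their differences are a description: the secreted ependymin-related gene Epdr1 (-4.84), the tetraspanin gene Tspan3 (-3.67), the ornithine aminotransferase gene Oat (4.56), the phospholipase gene Pla2g7 (-5.59) and the replication gene Mcm2 (-4.22). Oat was higher in quadriceps and lower in liver, and the other 4 were lower in quadriceps and higher in liver. The quadriceps call of Oat ended in fits lacking any single library other than Yap1S5A replicate 1 (up to an adjusted p of 0.128) and that of Tspan3 in fits lacking any other than Yap1S5A replicate 1 or GFP replicate 1 (up to 0.111). For Yap1 the difference was 0.81, with 0.26 in quadriceps, not called, and -0.55 in liver.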

How the results depend on the processing

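The numbers of genes called higher and lower in quadriceps, 510 and 584, ran from 277 to 464 and from 325 to 560 when single libraries were left out, and the at least 2-fold counts from 95 to 151 higher and from 59 to 103 lower. Those of the leave-outs that moved a count by over 1.5 times were without Yap1S5A replicates 1 and 3 and GFP replicate 4. Leaving out GFP replicates 1 and 4 gave 176 higher, 262 lower and 48 at least 2-fold higher, and leaving out Yap1S5A replicates 1 and 2 gave 271, 256 and 81. A filter at a mean of 5 CPM gave 44 at least 2-fold higher, with fewer genes tested, and the fit over all 16 libraries gave 334 lower; the cause was not tested. DESeq2 called 1405 genes, which included 1089 of the 1094. RLE factors, upper-quartile factors and the deposited library sizes gave 1095, 1104 and 1112 calls.

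Deviations of Yap1S5A and GFP libraries of one replicate number had correlations of -0.277, 0.0855, -0.229 and 0.0711. These gave no sign that the numbers pair the samples, but so few values cannot exclude a shared batch. With the replicate block 355 genes were higher and 402 lower, 110 and 66 at least 2-fold, and 709 of the 757 calls were also among the 1094. The interaction with a block of vector and replicate number, which joins the liver and quadriceps libraries of one number, called 6267 genes against 6558. Deviations of the libraries so joined had correlations of -0.0193 to 0.0778, and whether they come from the same mouse was not established. The liver counts stayed within 1.5 times with RLE factors (4189 higher, 3958 lower) and with no filter (4157 and 4133).

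Of 172 called genes followed by name, 96 kept their call in all 8 fits lacking a single library and 55 under every alternative, and none of the 172 reversed. The fit over all 16 libraries ended 73 of these calls, the replicate block 47, leaving out both GFP replicates 1 and 4 ended 82, and leaving out both Yap1S5A replicates 1 and 2 ended 69. Of the uncalled, without GFP replicates 1 and 4 Mybpc1 turned to -0.20, Myh1 to -0.26 and Pmp22 to -0.24, and without Yap1S5A replicates 1 and 2 Alb turned to -0.049, Pmp22 to -0.15 and Tnnt1 to -0.072. Ckm turned to 0.035 without Yap1S5A replicate 1. Socs3 ran from -0.19 without Yap1S5A replicate 2 to 0.092 without Yap1S5A replicate 3 and turned to 0.083, 0.092, 0.092 and 0.015 without Yap1S5A replicate 1, Yap1S5A replicate 3, GFP replicate 2 and GFP replicate 4. In the simulated data, 37.9% of genes changed 1.5-fold were recovered, but fewer genes were changed there than were called in the real data. The share missed in the real data is therefore not known.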

Other observations

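Further lists are given here, beside 4.21% of all genes called higher and 4.82% called lower. Of 18 cell cycle genes tested out of 38, 2 fell, the mitotic kinase gene Aurka (-0.73 ± 0.17, edgeR adjusted p = 0.0151) and the replication helicase gene Mcm2 (-0.58 ± 0.15, 0.027). Aurka was at 3.88, 4.52, 4.22 and 4.96 CPM against 7.46, 7.88, 5.57 and 8.16 CPM, lower in all 4 Yap1S5A libraries, and lost its call without GFP replicate 4 (0.0525). Mcm2 lost it without Yap1S5A replicate 3 or 4 or GFP replicate 3 or 4 (0.0577 to 0.0805). Of 18 p53 target genes 2 fell, the cyclin gene Ccng1 at 507 to 594 CPM against 775 to 907 CPM (-0.63 ± 0.093, 0.00131) and Ei24 (-0.28 ± 0.081, 0.048), the latter lost without any single library (0.0637 to 0.145). Of 9 Schwann cell genes edgeR and DESeq2 called 0, and 0 had an unadjusted p under 0.05. Of 23 lipid synthesis genes 3 fell and 1 rose, the first led by Gpam, which starts glycerolipid synthesis (-0.58 ± 0.096, 0.00232).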
